A study of Mus musculus with 36 samples.

Results

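Epithelial-mesenchymal transition was followed through 8 genes, the cadherins Cdh1, Cdh2 and Cdh11, the transcription factors Zeb1, Snai1 and Snai2, the filament protein Vim and the matrix protein Fn1. They were taken by gene symbol from a table of 45281 probes and 30869 symbols, which holds 17 probes of these genes. Of those, 15 were among the 21712 probes detected on at least 1 array and tested. The question was how these genes differ between the early regions, at E7.5 and E8.5, and the tail bud that follows them.

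The study profiled pieces of the mouse posterior growth zone on Illumina bead arrays. All embryos were wild-type MF1. There were 36 arrays from 16 regions, 4 regions with 3 arrays and 12 with 2, hybridised in 3 batches of 12 arrays on 6 BeadChips. Each array carried RNA pooled from 6 to 74 dissected pieces. The E7.5 embryos, at the headfold stage, gave an anterior piece (A), a posterior one (P) and one proximal to it (PP). Of the 5 regions at E8.5, RN is the rostral part of the node, NSB its border with the streak, CLE the lateral epiblast of the caudal end, St1 the front and St5 the back of the primitive streak. Only the CLE is labelled as epiblast. Its samples were freed of the mesoderm and endoderm lying beneath, while the other early pieces were taken whole. The tail bud was sampled as chordoneural hinge (CNH) at E9.5, E10.5, E11.5, E12.5 and E13.5 and as the tissue posterior to it (P-CNH) at E9.5, E10.5 and E11.5. The groups hold 7 arrays at E7.5, 12 at E8.5 and 17 in the tail bud.

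An epithelial cell holds its neighbours through E-cadherin, the product of Cdh1, and keeps an apical and a basal side. During gastrulation, epiblast cells that pass through the primitive streak lose these contacts, and transcription factors of the Snail and Zeb families bind E-box sequences and repress Cdh1. Mesenchymal cells carry vimentin filaments, lay down fibronectin and often use other cadherins, such as N-cadherin from Cdh2 or cadherin-11.

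Arrays differed in quality. Between 10814 and 16256 probes were detected per array, the median intensity ran from 53.4 to 168, and the ratio of detected over undetected signal from 2.28 to 15.1. Detection was poorest on 5 arrays, E13.5 CNH replicate 2 (10814 probes), the CLE replicates 1 (11062) and 2 (12289), the first E11.5 P-CNH array (12280) and the first E7.5 P array (13073). Replicate correlations across tested probes ran from 0.858 in the E13.5 CNH to 0.997 in the E9.5 CNH. Levels are given as normalised log2 intensity. Differences come from the fitted model, which adjusts for batch, so they can depart from the difference of 2 group means. Folds given as at least a value are the exception, as they compare array means not adjusted for batch. Batch 1 shares 1 region, the NSB, with the other batches, and NSB replicate 3 alone ties them together. A fit without that array cannot adjust batch 1 to the others, so values given without it that set batch 1 arrays against others also carry the batch difference. The number of arrays limits the precision of all values.

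The labels were checked against marker genes. The epiblast markers (Pou5f1, Nanog, Utf1, Fgf5, Dnmt3b, Otx2) summed to a median intensity of 22600 at E7.5 (16400 to 35000), 13600 at E8.5 (10600 to 21400) and 3100 in the tail bud (1850 to 5960). The probe with the strongest signal was that of Dnmt3b, which does not rank genes by abundance. Markers of streak and tail bud progenitors, T among them, had medians of 25500, 39600 and 50300. T was detected on 36 of 36 arrays. Visceral endoderm markers, with Apoa1, summed to a median of 10700 at E7.5 (1990 to 37500), 1150 at E8.5 (169 to 2970) and 154 in the tail bud (101 to 399). Gut endoderm markers, with Trh, had medians of 7780, 7120 and 718. Blood markers, with Hba-a1, went the other way, with medians of 237, 1360 and 29300. Endothelial markers had medians of 310, 132 and 181. Sox1, Pax6, Perp, Kdr, Tie1, Uncx, Pax1, Pax9, Sox10 and Foxd3 were detected on no array. These are bulk samples, in which fewer cells of a type and less RNA per cell cannot be told apart.

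Cdh1, the epithelial cadherin, was high before the tail bud formed. Its main probe (ILMN_2628629) measured 9.51 at the lowest, 10.19 at the median and 10.74 at the highest of the E7.5 arrays. At E8.5 the same values were 9.66, 10.43 and 10.81, and in the tail bud 5.53, 7.18 and 9.75. It was detected on all early arrays and on 13 of 17 tail bud arrays. Tail bud arrays thus lay below the early ones apart from E13.5 CNH replicate 2 (9.75), which lay above the lowest E7.5 P array (9.51) and the lowest CLE array (9.66). In the mean of each region, St1 stood first (10.67), followed by RN (10.60), NSB (10.46), PP (10.39), A (10.28), St5 (10.16), CLE (10.08) and P (9.81). Below them came the E13.5 CNH (9.08), E11.5 P-CNH (8.56), E10.5 P-CNH (7.74), E12.5 CNH (7.65), E10.5 CNH (7.02), E11.5 CNH (6.36), E9.5 P-CNH (6.10) and E9.5 CNH (6.06). Neighbours in this order overlapped, apart from the E11.5 and E10.5 P-CNH. Neither E9.5 CNH array detected Cdh1. Adjusted for batch, the early means ran from 10.16 in St5 to 10.68 in E7.5 A and those of the tail bud from 6.45 to 9.43.

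Against E7.5, Cdh1 fell by 2.93 on the log2 scale in the tail bud (SE 0.278, 95% confidence interval -3.51 to -2.36, adjusted p = 2.04e-08). Against all E8.5 regions it fell by 2.87 (SE 0.363, -3.63 to -2.12, adjusted p = 4.95e-06). A difference between E8.5 and E7.5 was not called, with an estimate of -0.06 (SE 0.526, -1.15 to 1.03, adjusted p = 0.97). A dimmer Cdh1 probe (ILMN_1227162), detected on 11 of 36 arrays, fell by 0.66 against E7.5 (SE 0.21, adjusted p = 0.0175), a call lost without NSB replicate 3 or E7.5 PP replicate 1 and in 9 of 15 alternatives. It was not called in any other comparison. Against E8.5 it stood at 0.33 (SE 0.275, adjusted p = 0.528) and against the CLE at -0.23 (SE 0.264, adjusted p = 0.623). In batch 1 no E10.5 array detected it, so no size is given (adjusted p = 0.5).

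Zeb1, a repressor of Cdh1, had the opposite pattern and was detected on all arrays. Its lowest, median and highest levels were 7.16, 7.59 and 8.41 at E7.5, then 7.5, 8.25 and 8.63 at E8.5, and 9.80, 10.14 and 10.51 in the tail bud. No tail bud array overlapped an early one. By region the mean was highest in the E12.5 CNH (10.25) and lowest within the tail bud in the E9.5 P-CNH (9.92). St5 was the highest early region (8.59), followed by RN (8.41), NSB (8.27), St1 (8.15), E7.5 P (7.95), A (7.89), CLE (7.70) and PP (7.29). Within the tail bud, regions next to each other in this order overlapped. Adjusted for batch, the early means ran from 7.46 in PP to 8.59 in St5 and those of the tail bud from 10.04 to 10.36. In the fit, Zeb1 rose by 2.39 from E7.5 to the tail bud (SE 0.141, 2.10 to 2.68, adjusted p = 7.05e-12) and by 1.95 from E8.5 (SE 0.185, 1.57 to 2.33, adjusted p = 7.84e-08). Between E7.5 and E8.5 the estimate was 0.44 (SE 0.268, adjusted p = 0.415).

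**Figure D1:**
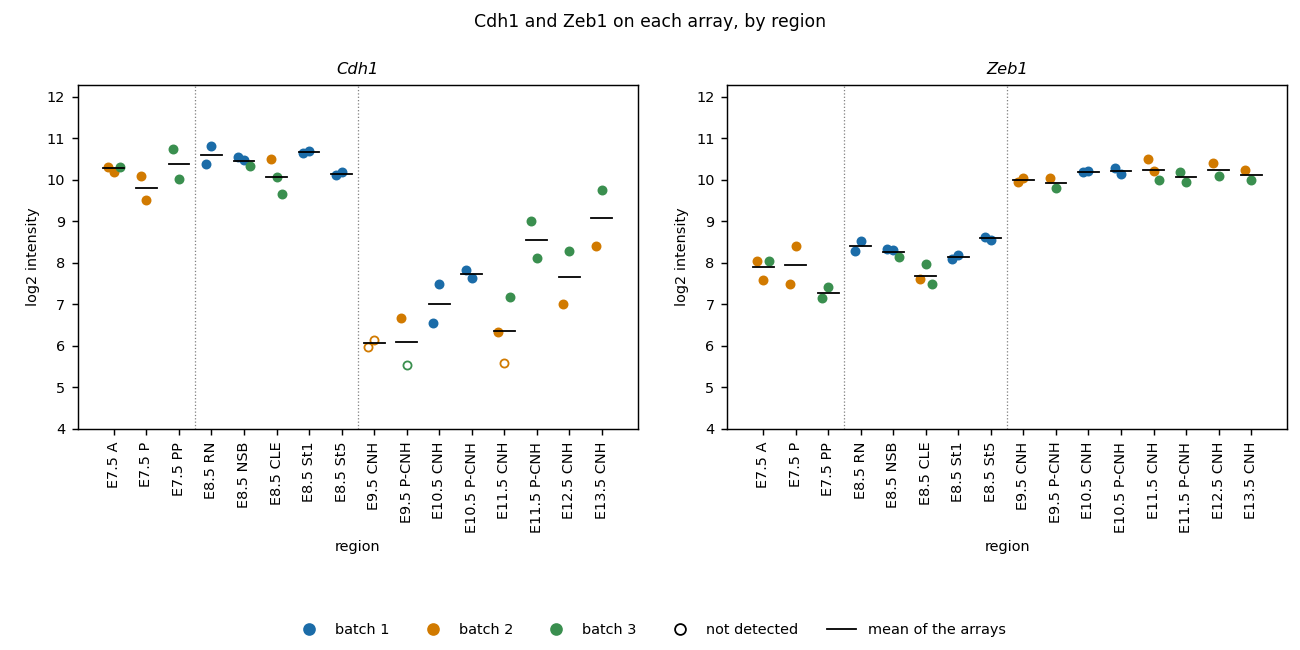
Normalised log2 intensity of Cdh1 and Zeb1 on each of the 36 arrays by region, with open points where the gene was not detected, colours for the batches and a bar for each region mean. Cdh1 lies between 9.51 and 10.81 on the early arrays and reaches down to 5.53 in the tail bud, while Zeb1 lies between 7.16 and 8.63 on early arrays and between 9.80 and 10.51 in the tail bud.

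Snai1, which represses Cdh1 in gastrulating cells, was detected on 35 of 36 arrays. Its lowest, median and highest levels were 7.73, 9.23 and 9.73 at E7.5, then 5.15, 8.30 and 10.07 at E8.5, and 7.95, 9.11 and 10.92 in the tail bud. The stages overlapped. The region means put the E11.5 P-CNH (10.35), St5 (9.98) and E7.5 PP (9.60) at the top and the RN (7.86) and CLE (7.36) at the bottom. Snai2, its relative, was near background and detected on 20 of 36 arrays. It measured 5.34, 6.48 and 6.94 at E7.5, then 4.51, 5.40 and 8.10 at E8.5, and 5.10, 6.06 and 8.60 in the tail bud. Its highest regions were the E13.5 CNH (7.90), St5 (7.83) and E12.5 CNH (7.68), which overlapped each other but not the next region, and its lowest was the CLE (4.69), where it was detected on 0 of 3 arrays. In means adjusted for batch, St5 (9.98) and the E11.5 P-CNH (9.64) led for Snai1 with the CLE last (7.06), and the E13.5 CNH (8.81) and E12.5 CNH (8.58) led for Snai2 with the RN last (5.40). For the tail bud against E7.5 the estimates were 0.09 for Snai1 (SE 0.329, -0.59 to 0.77, adjusted p = 0.855) and -0.15 for Snai2 (SE 0.265, -0.70 to 0.40, adjusted p = 0.682). A dimmer Snai1 probe (ILMN_1241355), detected on 12 of 36 arrays, was not called in any comparison and stood at -0.00 against E7.5 (SE 0.38, adjusted p = 1) and -0.02 against E8.5 (SE 0.497, adjusted p = 0.989).

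Vim, which encodes the intermediate filament of mesenchymal cells, measured 6.75, 9.83 and 10.92 at E7.5 (lowest, median, highest), then 6.15, 8.94 and 10.19 at E8.5, and 6.53, 10.42 and 11.25 in the tail bud. Fn1, for fibronectin, measured 6.73, 10.66 and 11.58, then 5.39, 9.24 and 11.34, and 4.94, 10.13 and 11.91. For both genes all stages overlapped and replicates could lie far apart. The E11.5 P-CNH arrays gave 6.86 and 11.25 for Vim and 4.94 and 11.00 for Fn1, and the E13.5 CNH arrays 6.53 and 10.47 for Vim and 5.33 and 9.71 for Fn1. Vim had its highest region mean in the E12.5 CNH (10.99) and its lowest in the CLE (8.24), and Fn1 in the E10.5 CNH (11.61) and the E13.5 CNH (7.52). These means are not adjusted for batch. In the fitted means E7.5 PP was highest for both (11.17 and 12.58), and the lowest were E7.5 A for Vim (8.33) and the E13.5 CNH for Fn1 (8.57). Neither gene was called between the tail bud and E7.5, where the estimates were 0.32 for Vim (SE 0.543, -0.80 to 1.45, adjusted p = 0.669) and -0.68 for Fn1 (SE 0.763, -2.26 to 0.91, adjusted p = 0.509). Against E8.5 they were 0.98 (SE 0.709, adjusted p = 0.446) and 0.89 (SE 0.997, adjusted p = 0.659). A further Vim probe was detected on no array. Fn1 has 3 dimmer probes, ILMN_2588227, ILMN_1260125 and ILMN_2646618, detected on 21, 14 and 11 of 36 arrays. Against E7.5 they stood at -0.20, 0.29 and -0.26 and against E8.5 at 0.75, 0.23 and 0.15, with none called.

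The probes of the mesenchymal cadherins read close to the limit of detection. Whether this reflects low transcript levels or weak probes was not tested. The main Cdh2 probe was detected on 2 of 36 arrays, one each of the E12.5 and E13.5 CNH, and measured 4.73 to 5.44 at E7.5, 4.60 to 5.53 at E8.5 and 4.52 to 6.72 in the tail bud. The main Cdh11 probe was detected on 10 of 36 arrays. It measured 5.33, 5.35 and 5.98 at E7.5 (lowest, median, highest), 4.51, 5.26 and 6.00 at E8.5, and 4.49, 5.71 and 6.75 in the tail bud. Its highest regions were the E10.5 P-CNH (6.49), E10.5 CNH (6.25) and E9.5 CNH (6.22) and its lowest the E13.5 CNH (4.54). With batch adjusted, the E9.5 CNH (7.18) and E7.5 P (6.75) were highest and the NSB lowest (5.30). The stages overlapped for both genes. Against E7.5 neither was called by limma. No E7.5 array detected the main Cdh2 probe, so its size is not given (adjusted p = 0.848). Cdh11 stood at -0.16 (SE 0.202, adjusted p = 0.552). A second Cdh2 probe was detected on 7 of 36 arrays, among them 4 of 4 at E10.5, and a further Cdh11 probe was detected on no array.

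**Figure D2:**
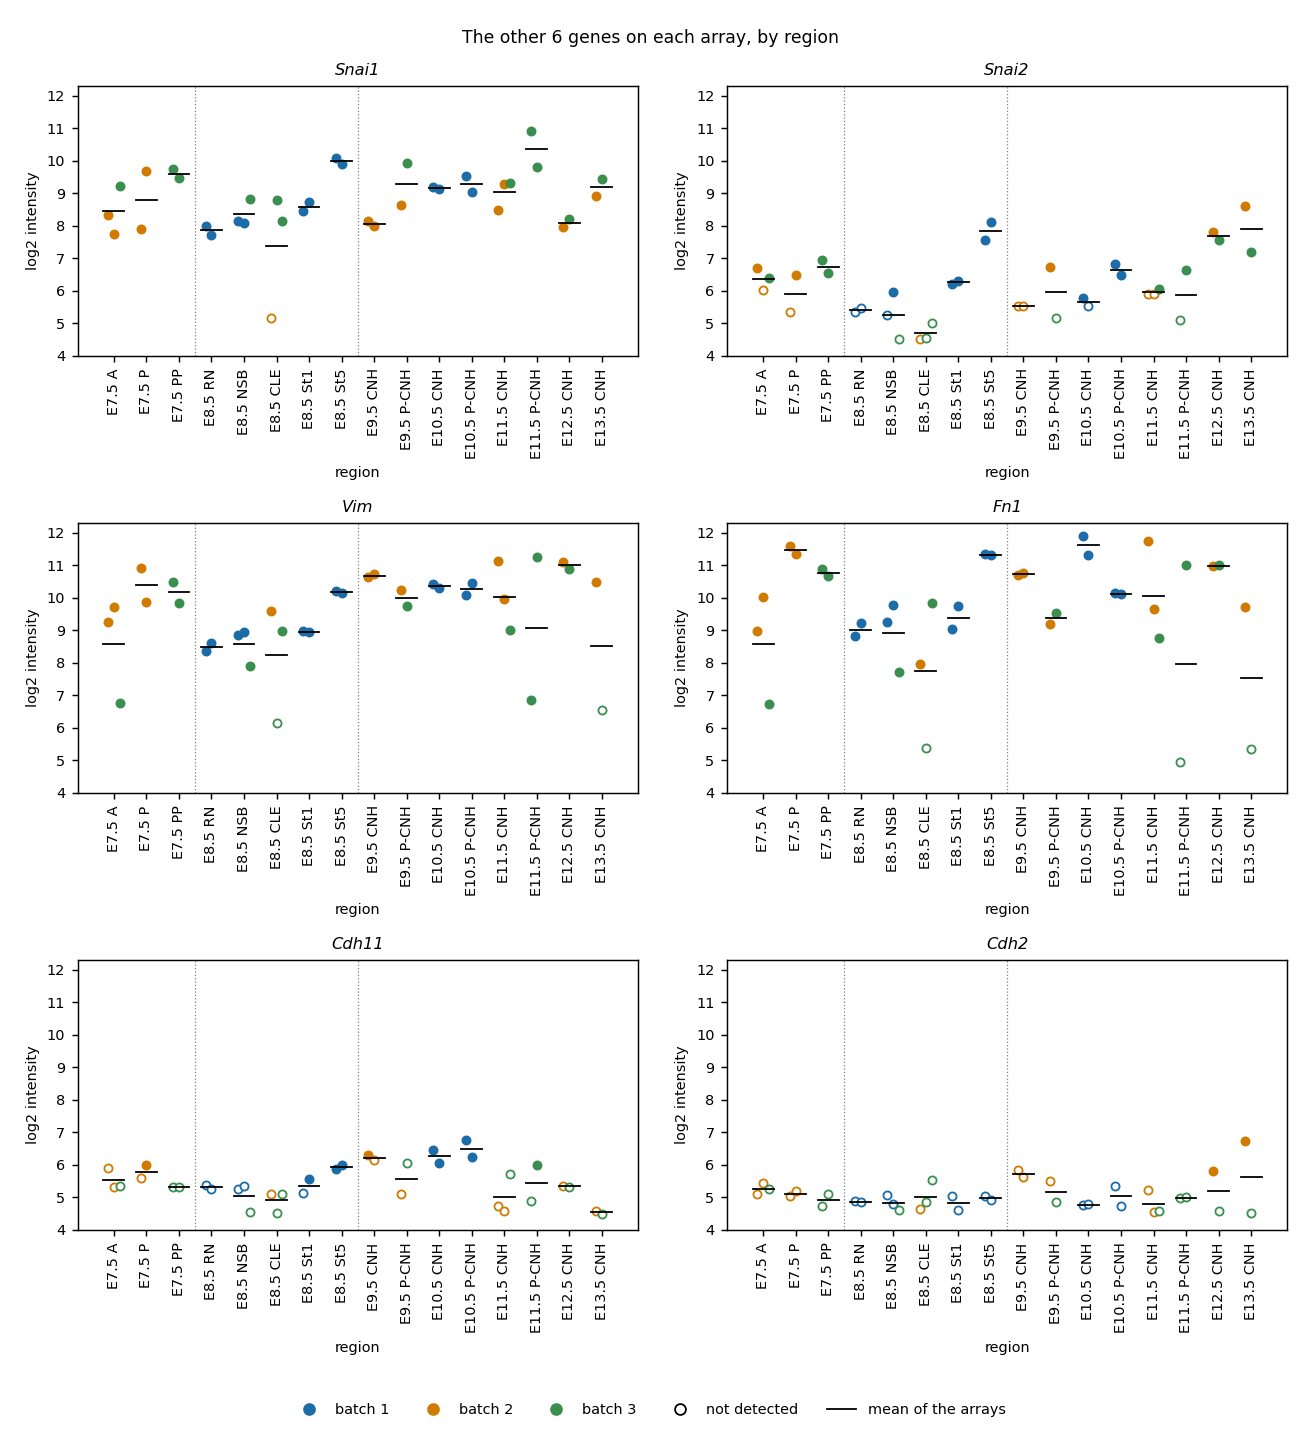
Normalised log2 intensity of Snai1, Snai2, Vim, Fn1, Cdh2 and Cdh11 on each of the 36 arrays by region, with open points where the gene was not detected, colours for the batches and a bar for each region mean. Snai1, Vim and Fn1 spread widely within all 3 stages, from 4.94 to 11.91 for Fn1 in the tail bud, and the main Cdh2 probe was detected on 2 of 36 arrays.

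Counted over the 8 genes, 1 was called higher (Zeb1) and 1 lower (Cdh1) in the tail bud than at E7.5, while 14.2% of all tested probes were called higher and 14.8% lower. The median difference was -0.04 for the 8 genes and -0.06 for all tested probes. Against E8.5 the same genes were called, 1 higher and 1 lower, against 6.51% and 5.62% of all probes, and the medians were 0.81 and 0.02. Without E11.5 P-CNH replicate 1 the count against E8.5 was 4, since Cdh11 (0.79, adjusted p = 0.027) and Snai2 (1.01, adjusted p = 0.0275) were then called higher. Snai2 was also called without E13.5 CNH replicate 2 (1.05) or E9.5 P-CNH replicate 2 (1.07), and Cdh11 without CLE replicate 1 (0.81). With all arrays Snai2 stood at 0.92 (SE 0.347, adjusted p = 0.089) and Cdh11 at 0.73 (SE 0.264, adjusted p = 0.0762). The dimmer Cdh11 probe ILMN_1240529 did not follow, at -0.04 (SE 0.238, adjusted p = 0.952). At E7.5 no array detected it, and its difference to the tail bud was under the 1.5-fold threshold (adjusted p = 0.043). Both comparisons share the tail bud arrays.

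Against the CLE alone, 3 genes were called higher (Zeb1, Snai1 and Snai2) and 1 lower (Cdh1), against 10.2% and 7.34% of all probes. The medians were 1.39 and 0.01. Zeb1 measured 7.5 to 7.98 in the CLE and rose by 2.38 (SE 0.177, 2.01 to 2.74, adjusted p = 1.18e-09), and Cdh1 measured 9.66, 10.07 and 10.51 and fell by 2.78 (SE 0.349, -3.50 to -2.05, adjusted p = 3.22e-06). Snai1 measured 5.15, 8.15 and 8.78 in the CLE and rose by 1.94 (SE 0.413, adjusted p = 0.00155). Snai2 was detected on 0 of 3 CLE arrays, at 4.51 to 5.01, and on 10 of 17 tail bud arrays. It was called higher (adjusted p = 0.0038), but its size cannot be given from a level under background. Both Snail calls were lost without CLE replicate 1. Then Snai1 stood at 1.06 (adjusted p = 0.0653), Snai2 was not called (adjusted p = 0.0623) and the count was 2. Without the 5 arrays of poorest detection, that one among them, both were called (adjusted p = 0.00657 and 0.0394, Snai1 at 1.34), a setting chosen after the data had been seen. With the tail bud limited to E9.5 to E11.5, Snai2 was not called either (adjusted p = 0.122). In the same comparison Vim stood at 1.38 (SE 0.682, adjusted p = 0.176) and Fn1 at 1.52 (SE 0.959, adjusted p = 0.309). With BeadChip as a random block the count was 7. Cdh11 (adjusted p = 0.035), Vim (1.55, adjusted p = 0.0434) and Fn1 (1.86, adjusted p = 0.0492) were then also called. The main Cdh11 probe was detected on 0 of 3 CLE arrays, so its size is not given. Over all probes, calls then rose from 2216 higher and 1594 lower to 2541 and 2018. A dimmer Cdh11 probe (ILMN_1240529), undetected in the CLE, was called higher (adjusted p = 0.029), but not without NSB replicate 1, NSB replicate 3 or any single CLE array. Visceral endoderm markers on the CLE arrays summed to 352, 470 and 169, against a tail bud median of 154. Gut endoderm markers summed to 3400, 3880 and 2430 there and to at most 1710 in the tail bud. Brightest of them over all arrays was Trh, which was lower in the tail bud than in the CLE. Of the 7 gut endoderm markers, 2 were called higher in the tail bud and 2 lower (median 0.08). Epiblast markers summed to 21400, 12100 and 14400 in the CLE, against at most 5960 in the tail bud.

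Between E8.5 and E7.5, 0 of 8 genes were called by limma in either direction, against 1.71% of probes called higher and 1.43% lower. Those with an unadjusted p under 0.05 numbered 2, Cdh11 at -0.89 (SE 0.383, adjusted p = 0.227) and Snai2 at -1.07 (SE 0.502, adjusted p = 0.274), beside 3785 of all probes (17.4%). The median was -0.63 for the 8 genes and -0.05 for all probes. Snai1 stood at -0.60 (SE 0.623, adjusted p = 0.673) and was called lower, at -1.17 (adjusted p = 0.0136), without NSB replicate 3, a fit that leaves the batch difference in. At E8.5, 5 of 7 visceral endoderm markers were lower (-2.69) and 4 of 7 progenitor markers higher (1.93) than at E7.5.

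Within batch 1, RN, NSB, St1 and St5 could be compared with the E10.5 CNH and P-CNH on arrays hybridised together. Cdh1 measured 10.12 to 10.81 on the 8 E8.5 arrays and 6.55 to 7.83 on the 4 E10.5 arrays, and Zeb1 8.10 to 8.63 and 10.14 to 10.29, both without overlap. Cdh1 fell by 3.11 (SE 0.306, -3.74 to -2.47, adjusted p = 7.07e-08) and Zeb1 rose by 1.84 (SE 0.156, 1.52 to 2.16, adjusted p = 6.47e-09). In all, 2 genes were called higher and 1 lower, against 7.61% and 6.79% of all probes, with medians of 0.74 and -0.02. The other gene called higher was Cdh11, at 6.07 to 6.75 against 5.13 to 6.00, by 0.90 (SE 0.223, adjusted p = 0.00543). Without E10.5 P-CNH replicate 1 it stood at 0.77 (adjusted p = 0.0543) and the count was 2, and it was not called without background correction or with a larger offset (0.38 in both). A dimmer Cdh11 probe (ILMN_1240529) rose by 1.01 (SE 0.2, adjusted p = 0.000691), a call also lost with those settings. A dimmer Cdh2 probe (ILMN_2605503) measured 4.97 to 5.88 and then 5.91 to 6.97 and rose by 0.77 (SE 0.171, adjusted p = 0.00211), or 0.50 without E10.5 P-CNH replicate 1, which ended the call. Of the dimmer Fn1 probes, ILMN_2646618 rose by 0.94 (SE 0.286, adjusted p = 0.0241), a call lost without St1 replicate 1, St5 replicate 2, E10.5 CNH replicate 1 or E10.5 P-CNH replicate 1. Another, ILMN_1260125, rose by 0.80 (SE 0.272, adjusted p = 0.0457), lost without any of 18 single arrays. The main Fn1 probe was not called. Vim stood at 1.19 (SE 0.598, adjusted p = 0.217).

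**Figure D3:**
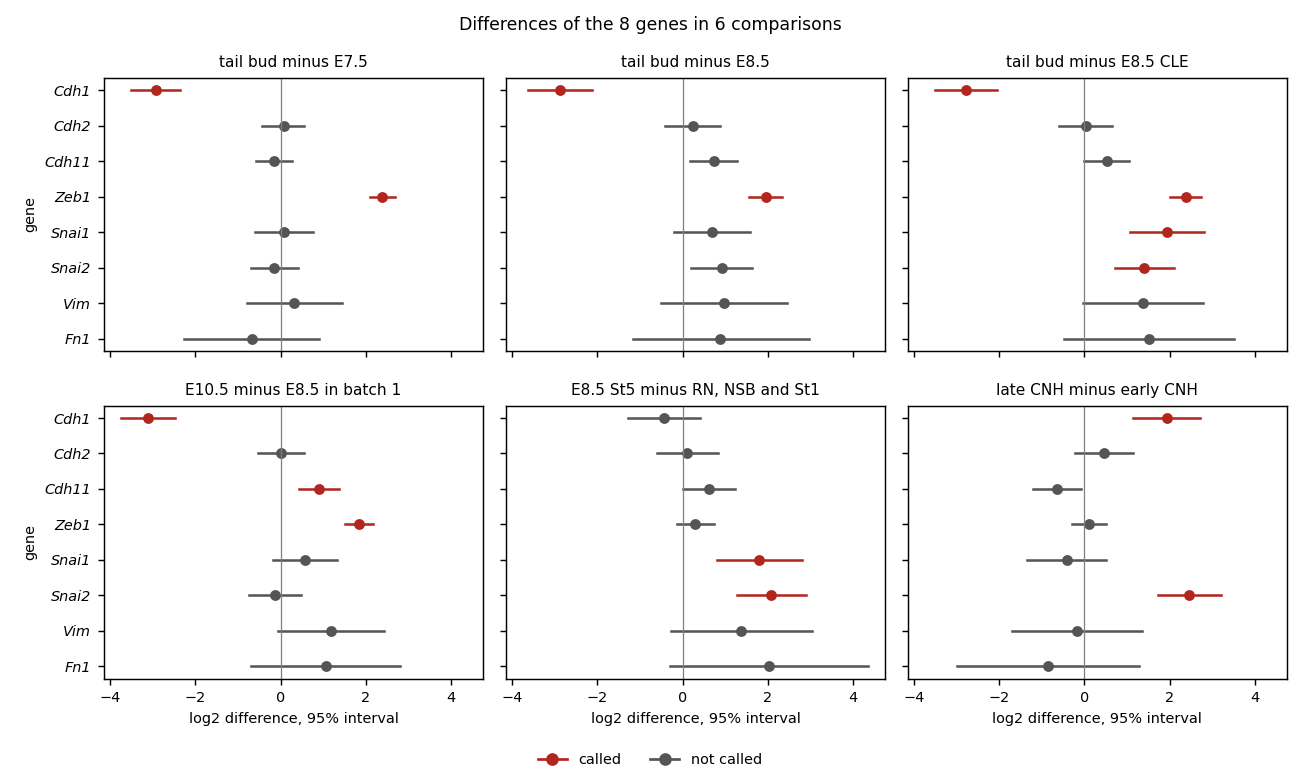
Fitted log2 difference of each of the 8 genes in 6 of the 9 comparisons, with 95% confidence intervals, in red where the difference was called and grey where it was not. Cdh1 lies at -2.93, -2.87, -2.78 and -3.11 and Zeb1 at 2.39, 1.95, 2.38 and 1.84 in the comparisons of the tail bud with E7.5, E8.5 and the CLE and of E10.5 with E8.5 in batch 1.

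Along the E7.5 embryo, Vim measured 9.83 to 10.92 in P and PP and 6.75 to 9.72 in A, and Fn1 10.66 to 11.58 and 6.73 to 10.02, without overlap. The fit gave 2.02 for Vim (SE 0.75, adjusted p = 0.149) and 2.79 for Fn1 (SE 1.06, adjusted p = 0.159). By limma, 0 of 8 genes were called, against 2.89% of probes called higher and 2.9% lower. These 2 genes passed an unadjusted p under 0.05, as did 3288 probes (15.1%). Without E11.5 P-CNH replicate 1, or without its replicate 2, the count was 2, with the same estimates and adjusted p of 0.0282 for Vim and 0.0342 for Fn1, since that pair of arrays enters the shared estimate of the spread. A dimmer Fn1 probe (ILMN_2646618) was detected on 3 of 4 arrays of P and PP and 0 of 3 of A. It was called higher posteriorly (adjusted p = 0.011), but not without A replicate 1 or PP replicate 1. Cell type markers differed along the same axis. In P and PP, 7 of 7 streak and tail bud progenitor markers (median 5.11) and 4 of 7 visceral endoderm markers (1.80) were called higher, and 3 of 6 epiblast markers lower (-1.67). Their part in the Vim and Fn1 values was not tested.

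Within E8.5, the posterior streak was compared with the RN, NSB and St1. Snai2 measured 7.57 and 8.10 in St5 and 4.52 to 6.29 in those regions, and Snai1 9.89 and 10.07 against 7.72 to 8.82. Vim (10.14 and 10.19 against 7.89 to 8.98) and Fn1 (11.31 and 11.34 against 7.71 to 9.77) did not overlap either, while Cdh1 lay slightly lower in St5 (10.12 and 10.19 against 10.34 to 10.81). Snai2 rose by 2.08 (SE 0.389, adjusted p = 0.000768) and Snai1 by 1.80 (SE 0.483, adjusted p = 0.0215). These 2 of 8 genes were called higher and 0 lower, against 3.04% and 3.68% of all probes, with medians of 1.00 and 0.01. By limma, both genes with an unadjusted p under 0.05 were the higher ones, beside 13.1% of all probes with such a p. With only 2 St5 arrays the calls are fragile. Snai1 was lost without St5 replicate 1 (1.71) or replicate 2 (1.89), without the batch term and without the filter on dim probes, and Snai2 without St5 replicate 2 (1.82). The count was 1 and 0 in turn. Not called were Vim at 1.38 (SE 0.797, adjusted p = 0.591), Fn1 at 2.02 (SE 1.12, adjusted p = 0.545) and Cdh1 at -0.44 (SE 0.408, adjusted p = 1), each by its main probe. A dimmer Fn1 probe (ILMN_2646618) measured 7.25 and 7.84 in St5 and 4.55 to 6.00 in the other regions and rose by 2.06 (SE 0.382, adjusted p = 0.000712), or by 1.76 and not called without St5 replicate 1. On arrays of batch 1 alone 5 genes were called. Calls over all probes rose there from 660 higher and 799 lower to 1375 and 1591. Endothelial markers were also higher in St5, 3 of 4 called with a median of 1.61 and summed intensities of 722 and 831. Lower in St5 were 5 of 5 notochord markers (median -2.68), 2 of 2 somite markers (-2.05) and 3 of 7 gut endoderm markers (-0.24). The part of these cell types was not tested.

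The list of 16 EMT transcription factors, which includes Snai1, Snai2 and Zeb1, had 7 genes called higher and 2 lower in St5, with a median of 0.32. Of all probes, 3.04% were called higher and 3.68% lower there. Ets1 rose by 3.67 (SE 0.316, adjusted p = 2.42e-08) and Twist2 by 3.35 (SE 0.286, adjusted p = 2.05e-08), which were chosen here after their values were seen. Beside the same shares, 3 of 8 tested epithelial regulators were higher and 0 lower, with Elf3 at 2.66. Of 28 epithelial adhesion and polarity genes 2 were higher and 1 lower. P-CNH and CNH were compared at matched stages. There, 0 of 8 genes were called by limma, against 0.101% of probes called higher and 0.497% lower, and 1 had an unadjusted p under 0.05, Cdh1 at 0.85 (SE 0.299, 0.23 to 1.47, adjusted p = 0.525), beside 894 probes (4.12%). The medians were 0.16 and -0.00. Split by stage the Cdh1 estimates were 0.72 at E10.5 and 1.97 at E11.5 (SE 0.489, adjusted p = 0.16). At E9.5 Cdh1 was not called, and no CNH array detected it, so no size is given. Surface ectoderm markers in the E11.5 P-CNH summed to 711 and 337, with 0 of 4 called by limma over the 3 stages and 2 at an unadjusted p under 0.05. Lower in the P-CNH were 3 of 5 notochord markers (median -2.43) and 4 of 7 gut endoderm markers (-1.05).

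Late in tail development Cdh1 rose in the CNH. It measured 7.01 and 8.30 at E12.5 and 8.41 and 9.75 at E13.5, against 5.58 to 7.49 in the CNH of E9.5 to E11.5. The difference was 1.93 (SE 0.376, 1.15 to 2.71, adjusted p = 0.0019). Snai2 measured 7.20 to 8.60 late and 5.52 to 6.06 early, was detected on 4 of 4 and 2 of 7 arrays, and rose by 2.46 (SE 0.359, 1.72 to 3.21, adjusted p = 8.38e-05). These 2 of 8 genes were called higher and 0 lower, against 3.9% and 2.06% of all probes, with medians of -0.04 and -0.05. By limma, 3 genes had an unadjusted p under 0.05, beside 17.6% of all probes. The third was Cdh11, lower but not called (adjusted p = 0.203). No late CNH array detected its main probe, so its size is not given. It was called lower without NSB replicate 3, where batch 1 cannot be adjusted. The dimmer Cdh1 probe (ILMN_1227162) had the other sign, at -0.42 (SE 0.284, adjusted p = 0.498). With E12.5 alone, the main Cdh1 probe stood at 1.21 (adjusted p = 0.237), so its call needs the E13.5 arrays. This setting was chosen after the data had been seen. Zeb1 stood at 0.10 (SE 0.191, adjusted p = 0.849).

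The epithelial lists were also counted in the late CNH, where 3.9% of all probes were higher and 2.06% lower. Of 28 epithelial adhesion and polarity genes 10 were higher, 2 lower and 16 not called (median 0.79), and of 8 epithelial regulators 3 were higher and 0 lower (median 0.79). Singled out after their values were seen, Rab25 rose by 2.93, Esrp1 by 2.31 and Grhl2 by 2.42, and with E12.5 alone none of these 3 was called (2.07, 1.88 and 1.76). Surface ectoderm markers rose in the same arrays. They summed to 1010 and 798 in the E12.5 CNH and 2910 and 2700 in the E13.5 CNH, against 280, 58.4 and 363 in the E11.5 CNH and at most 69.4 on the tail bud arrays of E9.5 and E10.5. Of these, Krt14 rose by 4.32 (SE 0.523, adjusted p = 9.34e-06) and Trp63 by 3.68 (SE 0.306, adjusted p = 6.11e-08), 2 of 4 tested markers. Lower in the late CNH were 4 of 7 progenitor markers (median -0.76), 2 of 6 epiblast markers (-0.48) and 2 of 7 gut endoderm markers (-0.61). Their part in the Cdh1 rise was not tested.

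Lists of genes around Cdh1 are set beside the shares of all probes called higher and lower, which were 14.2% and 14.8% against E7.5, 6.51% and 5.62% against E8.5, 10.2% and 7.34% against the CLE, and 7.61% and 6.79% in batch 1. Of 28 tested genes of epithelial adhesion and polarity, 16 were called lower than at E7.5 and 2 higher, with a median of -0.91, and 10 were not called. Dsg2, a desmosomal cadherin, fell by 3.27 (SE 0.215, adjusted p = 4.75e-11), Rab25, a recycling GTPase, by 3.22 (SE 0.363, adjusted p = 3.1e-07), and Ap1m2, an epithelial sorting adaptor, by 2.98 (SE 0.298, adjusted p = 4.85e-08). Those called higher were the claudin Cldn3, by 1.90, and the keratin Krt7, by 0.63, a call lost without any of 11 single arrays. With E7.5 A as the only early region, Cldn3 stood at 0.62 and was not called. Against E8.5, 13 genes were lower and 1 higher, with a median of -0.76. Dsg2 fell by 2.70, the polarity gene Llgl2 by 2.38 and Ap1m2 by 2.36. The gene called higher was again Cldn3, by 1.08, a call lost without any of 15 single arrays. Against the CLE, 9 were lower and 2 higher (median -0.32), with Dsg2 at -2.66, Krt19 at least 2.57-fold higher and Krt7 at least 2.07-fold higher. In batch 1, 14 were lower and 1 higher (median -1.01), and Dsg2, Krt18 and Krt8 fell by 3.11, 3.09 and 2.87.

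Regulators of epithelial identity were called in both directions. Of 8 tested, 4 were lower and 1 higher than at E7.5 (median -0.72), beside 14.8% and 14.2% of all probes. The splicing factor gene Esrp1 fell by 2.82 (SE 0.363, adjusted p = 2.15e-06), Grhl2 by 2.33 (SE 0.289, adjusted p = 1.25e-06) and Klf5 by 2.19 (SE 0.147, adjusted p = 6.83e-11), while Elf3 rose by 1.47 (SE 0.157, adjusted p = 1.3e-07). Klf5 was not called against E7.5 A alone (-0.58). Against E8.5, 3 were lower and 1 higher (median -0.19, beside 5.62% and 6.51%), with Klf5, Esrp1 and Grhl2 lower by values of -2.74, -2.43 and -1.32 and Elf3 higher by 2.73. The Grhl2 call was lost without background correction, with a larger offset and on arrays of batches 2 and 3 only. The CLE comparison gave 5 lower and 1 higher (median -1.06, beside 7.34% and 10.2%), led by Klf5 at -3.39 and Esrp1 at -2.93, and batch 1 gave 3 lower and 2 higher (median -0.30, beside 6.79% and 7.61%), led by Klf5 at -3.15 and Elf3 at 3.37.

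The transcription factors of the transition did not move together. Of 16 tested, 4 were higher and 7 lower than at E7.5 (median -0.48), beside 14.2% and 14.8% of all probes. Zeb1, Twist2 (1.89, SE 0.195, adjusted p = 7.66e-08) and Tcf4 (1.20, SE 0.14, adjusted p = 4.99e-07) rose furthest, and Prrx2, Twist1 and Foxc1 had the lowest differences, at -2.36, -2.11 and -1.46. Against E8.5, 4 were higher and 1 lower (median 0.25). Twist2 rose by 2.95, Zeb1 by 1.95 and Ets1 by 1.92, and Prrx2 was lower, at -1.22 with all arrays and -0.80 without NSB replicate 3. Against the CLE, 9 were higher and 1 lower (median 1.18), with Twist2 at least 3.78-fold and Ets1 at least 5.85-fold higher and Sox9 higher by 2.59. Zeb2, a relative of Zeb1, was lower there (-1.5), but was not called without CLE replicate 1 (-1.42) or NSB replicate 3 (-0.45). In batch 1 the counts were 4 and 4 (median -0.15). Of 8 co-repressors used by Snail and Zeb proteins, 1 was higher (Wtip, 0.80) and 1 lower against E7.5 (median -0.24). Shares of all probes were 14.2% and 14.8%. By limma, 6 of the 8 had an unadjusted p under 0.05, as did 46.7% of all probes. The lower one, Ajuba, lost its call without any of 6 single arrays, and Wtip against E7.5 A alone (0.62). Against E8.5 and in batch 1, 0 of 8 were called by limma. There, 1 and 3 had an unadjusted p under 0.05, beside 24.7% and 26.1% of all probes. Against the CLE 1 was lower, Prmt5 at -0.71.

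The cadherin family was counted with Cdh1, Cdh2 and Cdh11 among its 11 tested genes. Of these, 3 were higher and 2 lower than at E7.5 (median -0.16), where 14.2% of all probes were higher and 14.8% lower. P-cadherin (Cdh3) rose by 1.79 (SE 0.201, adjusted p = 2.88e-07) and Cdh6 by 1.58 (SE 0.338, adjusted p = 0.000812), while the lower ones were Cdh1 and Cdh15. Cdh15 was detected on no tail bud array, so its size is not given, and its call was lost without background correction and with the larger offset. Endothelial Cdh5 was at least 1.08-fold higher, lost without any of 5 single arrays. Against E8.5, 1 was higher (Cdh3, 1.45) and 3 lower, Cdh1, Cdh13 (at least 1.07-fold) and Cdh15. The fitted differences of Cdh13 and Cdh15 were smaller without NSB replicate 3 and still called. Against the CLE the counts were 2 and 3 (median 0.03, Cdh3 at 2.34), and in batch 1 they were 3 and 3 (median 0.02, Cdh3 at 1.44). Among 9 adherens junction partners, 3 were lower than at E7.5 and 0 higher (median -0.35). Nectin2, an adhesion receptor, fell by 1.76 (SE 0.163, adjusted p = 1.46e-08), Nectin1 was at least 1.22-fold lower, and Ctnna2, undetected in the tail bud, was called lower, but not without NSB replicate 3. Against E8.5, 2 were lower (median -0.04), with Nectin2 at -1.26 and Nectin1 at least 1.29-fold, the latter lost without any of 13 single arrays.

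**Figure D4:**
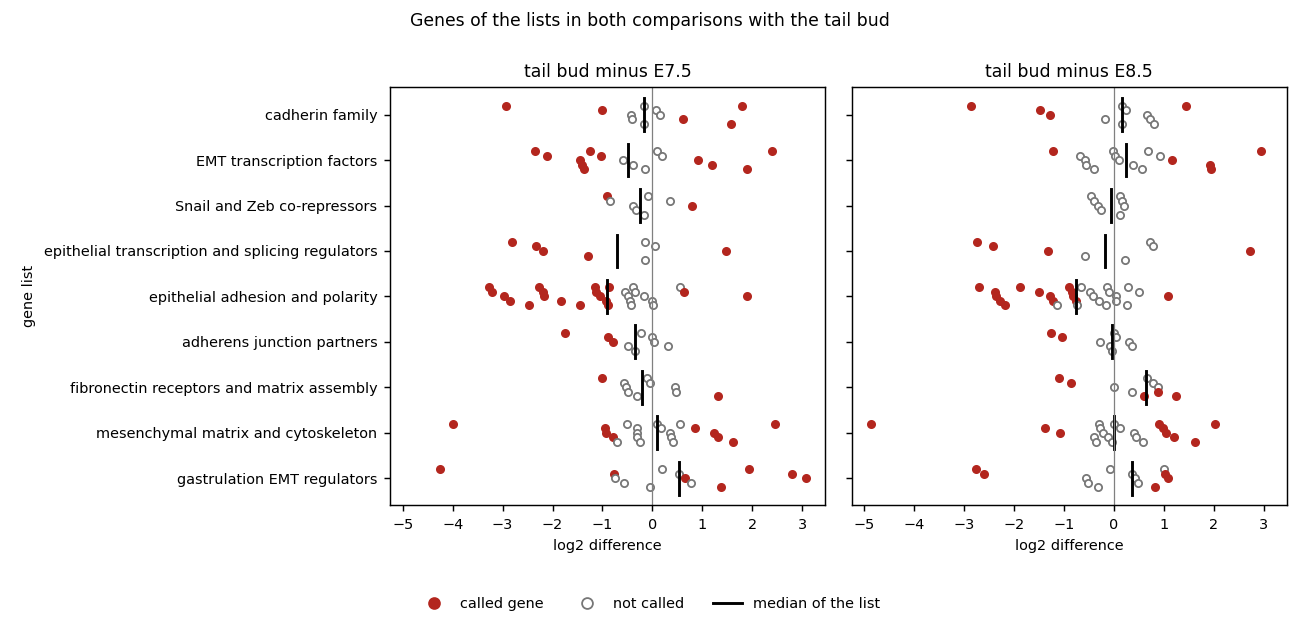
Log2 difference of each tested gene in 9 gene lists, for the tail bud against E7.5 and against E8.5, with called genes filled in red and a black bar for the median of each list. Epithelial adhesion and polarity has medians of -0.91 and -0.76, with 16 and 13 of 28 genes called lower.

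Mesenchymal genes showed no common direction. Of 21 tested genes of matrix and cytoskeleton, 5 were higher and 4 lower than at E7.5, with a median of 0.09, beside 14.2% and 14.8% of all probes. Ncam1, an adhesion molecule, rose by 2.45 (SE 0.268, adjusted p = 2.01e-07), the collagen gene Col5a2 was at least 1.83-fold higher and smooth muscle actin (Acta2) rose by 1.32. With P and PP as the only early regions Acta2 stood at 0.59 and was not called. Thy1 was at least 9.18-fold lower, Pdgfra fell by 0.95 and Cd44 fell by 0.92, or by 0.50 and not called without NSB replicate 3. Against E8.5 the counts were 6 higher and 3 lower (median 0.01). Col5a2 was at least 1.86-fold higher, Ncam1 stood at 1.63 and Nestin (Nes) at 1.21. Without NSB replicate 3, and so with batch 1 unadjusted, these were 0.53, not called, for Ncam1 and 1.93 for Nes. Thy1 was at least 9.7-fold lower, Des stood at -1.38 and Cd44 at -1.09, or -2.0 without NSB replicate 3. Against the CLE, 8 were higher and 3 lower (median 0.55), with Pdgfra at 1.68, and in batch 1 the counts were 5 and 3 (median -0.06), with Nes at 2.10.

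Receptors and assembly factors for fibronectin gave 1 higher and 1 lower of 10 against E7.5 (median -0.21), where 14.2% and 14.8% of all probes were called. The integrin gene Itga5 rose by 1.31 (SE 0.276, adjusted p = 0.000722), or 0.87 without NSB replicate 3, and Fblim1 fell by 1.00. Against E8.5, 3 were higher and 2 lower (median 0.64). Itgb1 rose by 1.25, or 0.81 without NSB replicate 3, Itgav by 0.88, lost without any of 22 single arrays, and Fermt2 by 0.61, lost without NSB replicate 3 (0.39), E11.5 P-CNH replicate 1 or E7.5 A replicate 3. Fblim1 was lower at -1.11, or -0.66 without NSB replicate 3, and Fbln1 at -0.87. The counts were 3 and 2 against the CLE (median 0.39) and in batch 1 (median 0.17), with Itga5 at 1.79 and 1.21.

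Signals and factors that drive gastrulation movements were counted in a list of 13 tested genes. Against E7.5, 5 were higher and 2 lower (median 0.54), beside 14.2% and 14.8% of all probes. Fgf8 rose by 3.07 (SE 0.205, adjusted p = 6.17e-11), Wnt3a by 2.79 (SE 0.138, adjusted p = 3.31e-13) and Tbx6 by 1.93 (SE 0.159, adjusted p = 2.08e-09), while Mesp1 was lower at -4.25 and Nodal at -0.77. With P and PP as the only early regions, Wnt3a and Tbx6 stood at 0.33 and 0.20 and were not called. Nodal stood at 0.09 against A alone and was not called there. Against E8.5 the counts were 3 and 2 (median 0.36), with Tbx6 at 1.03, Wnt3 higher, by a size not given as no E8.5 array detected it, and not called without NSB replicate 2, Fgf8 at 0.83, lost without any of 16 single arrays, Mesp1 at -2.76 and Nodal at -2.60. Against the CLE they were 5 and 1 (median 0.38, Mesp1 at -3.20), and in batch 1 they were 5 and 2 (median 0.05, Fgf8 at 1.62 and Nodal at -3.03). Shares of all probes in these were 6.51% and 5.62%, 10.2% and 7.34%, and 7.61% and 6.79%. Within E7.5, 6 of 13 were higher in P and PP and 0 lower (median 0.90), beside 2.89% and 2.9%.

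Markers of other cell types moved along with these differences. Of all probes, 14.2% were called higher and 14.8% lower against E7.5, and 6.51% and 5.62% against E8.5. The shares were 10.2% and 7.34% against the CLE, and 7.61% and 6.79% in batch 1. Against E7.5, 7 of 7 visceral endoderm markers (median -4.91), 7 of 7 gut endoderm markers (-1.81) and 6 of 6 epiblast markers (-3.13) were lower in the tail bud, and 6 of 6 blood markers (6.31) and 6 of 7 streak and tail bud progenitor markers (2.21) were higher. Against E8.5, 3 of 7 visceral endoderm markers (-0.89), 4 of 7 gut endoderm markers (-0.95) and 6 of 6 epiblast markers (-1.97) were lower and 4 of 6 blood markers (3.01) higher, and of 7 progenitor markers 3 were higher and 1, Nkx1-2, lower (0.83). Neural markers were lower for 1 of 3 in both comparisons (medians -0.94 and -1.09). Notochord markers gave 2 higher and 1 lower of 5 against E7.5 (0.70). Against E8.5, 0 of them were called by limma (0.24), with 1 at an unadjusted p under 0.05, beside 24.7% of all probes. Surface ectoderm markers were higher for 2 and 1 of 4 (1.33 and 0.83), and endothelial markers gave 1 higher and 2 lower, then 2 higher, of 4 (-0.09 and 0.58). Of 2 somite markers 1 was higher in both (0.40 and 0.65). From the neural crest list only Ets1 could be tested, and it was higher in both (0.91 and 1.92). The paper lists Ets1 with genes of blood vessel morphogenesis, so its values alone cannot stand for neural crest. Endoderm and epiblast are epithelia, and their part in the fall of Cdh1 and the epithelial genes was not tested. Against the CLE, the tail bud had 1 of 7 visceral endoderm markers lower (median 0.09), 2 of 7 gut endoderm markers higher and 2 lower (0.08, Trh at -5.40), and 4 of 6 epiblast markers lower (-2.04). Blood (6 of 6, 5.67), notochord (4 of 5, 2.06), somite (2 of 2, 2.16) and endothelial markers (2 of 4, 0.87) were higher there, and of 7 progenitor markers 2 were higher and 1, again Nkx1-2, lower (0.44). In batch 1, E10.5 had 6 of 6 epiblast (-1.28), 5 of 7 gut endoderm (-0.85), 4 of 7 visceral endoderm (-1.48) and 2 of 5 notochord markers (-0.40) lower than E8.5, and 5 of 6 blood (3.27) and 5 of 7 progenitor markers (0.92) higher, with 1 progenitor marker lower (Nkx1-2, -1.30). The part of these cell types in the other differences was not tested either.

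Across the 16 region means, the genes most like Cdh1 among 10828 searched were Naprt1 (Pearson r 0.969), Tnk1 (0.959) and Espn (0.953), and those most opposite were Smug1 (-0.953), Igf1r (-0.947) and 4933426E21Rik (-0.944). For Zeb1 the nearest were 6330403K07Rik (0.983), Hoxa11s (0.983) and Pskh1 (0.978). Vim was most like Dlc1 (0.960), Sh3glb1 (0.941) and LOC100044124 (0.927), and Fn1 most like Galnt11 (0.916), Caml (0.869) and Vim (0.860). Snai1 was most like Dusp2 (0.805), Tcirg1 (0.789) and Litaf (0.781), and Snai2 most like Sertad2 (0.861), Lhfp (0.829) and Pdgfra (0.819). Region means share batches and the split between early and tail bud regions, so these values describe the arrays only.

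Snail and Zeb proteins bind the E-box CACCTG, or CAGGTG on the other strand. It was searched in promoters of 300 bases, 250 before and 50 after the start, from RefSeq annotation on build GRCm38.p6. Of 32851 such promoters 6640 (20.2%) held it. Of 30 promoters of the epithelial adhesion and polarity list 23 (76.7%) did, and 2 of 4 promoters of the epithelial regulators. Among 20 genes of both lists that were lower in the tail bud than at E7.5, 12 had a promoter in the set. Of these 12 genes 9 held the motif, or 9 of 14 promoters (64.3%). This share was not above the 76.7% of the adhesion and polarity list. Cgn, Spint1 and Ovol2 were lower as well, with 0 copies each. Of the 8 genes, the supplied table holds Snai1, with 1 copy, and Vim, with 0 copies, and lacks Cdh1, Cdh2, Cdh11, Zeb1, Snai2 and Fn1. These counts describe the sequence and say nothing of binding. All promoters printed below hold the motif, which is in capitals. Snai1 lies at chr2:167537945-167538244 on the + strand with a copy at -126 from the start. Rab25 lies at chr3:88548230-88548529 on the - strand with copies at -64 and -53, Ap1m2 at chr9:21312284-21312583 on the - strand with copies at -81, -51, -21 and -9, and Krt8 at chr15:102004293-102004592 on the - strand with a copy at -111.
Snai1: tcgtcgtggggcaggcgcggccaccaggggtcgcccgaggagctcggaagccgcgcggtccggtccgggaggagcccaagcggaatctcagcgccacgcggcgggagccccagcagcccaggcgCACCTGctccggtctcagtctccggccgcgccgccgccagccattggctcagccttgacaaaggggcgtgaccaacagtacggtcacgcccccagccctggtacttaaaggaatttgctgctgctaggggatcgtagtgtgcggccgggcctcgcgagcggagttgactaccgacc
Rab25: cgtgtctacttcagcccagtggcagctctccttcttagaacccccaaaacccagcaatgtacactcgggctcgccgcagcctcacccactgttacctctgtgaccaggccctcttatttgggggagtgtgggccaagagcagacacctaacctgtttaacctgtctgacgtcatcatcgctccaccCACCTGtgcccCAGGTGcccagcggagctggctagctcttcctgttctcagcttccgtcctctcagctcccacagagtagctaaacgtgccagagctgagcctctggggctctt
Ap1m2: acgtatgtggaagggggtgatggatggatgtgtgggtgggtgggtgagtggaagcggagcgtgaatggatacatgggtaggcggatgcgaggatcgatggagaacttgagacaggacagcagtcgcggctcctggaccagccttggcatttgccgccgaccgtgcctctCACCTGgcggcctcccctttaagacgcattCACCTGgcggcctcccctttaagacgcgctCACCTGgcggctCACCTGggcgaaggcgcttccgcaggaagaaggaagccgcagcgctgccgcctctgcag
Krt8: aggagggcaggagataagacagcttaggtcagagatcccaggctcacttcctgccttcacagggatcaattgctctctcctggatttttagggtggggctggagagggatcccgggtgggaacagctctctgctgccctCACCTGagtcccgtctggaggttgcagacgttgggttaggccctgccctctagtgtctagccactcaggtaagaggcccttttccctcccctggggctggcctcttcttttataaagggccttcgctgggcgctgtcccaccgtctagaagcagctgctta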

How the data were processed

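RNA from pooled pieces of mouse embryos was hybridised to Illumina MouseWG-6 v2 arrays, and the authors deposited 1 table of non-normalised bead intensity for 36 arrays. The deposited table also gives a detection p-value for each probe and array. Intensities were corrected with normexp on negative controls inferred from the detection p-values (offset 16), put on the log2 scale after quantile normalisation, all by neqc of limma 3.58.1 in R 4.3.3. Probes with a detection p below 0.01 on at least 1 array were kept, 21712 in all, and 23569 were left out. One limma model held 16 regions and 3 batches, with 18 residual degrees of freedom. Limma's moderated test was two-sided, adjusted by Benjamini-Hochberg over all tested probes within each of 9 comparisons. Called means a fold of 1.5 or more together with an adjusted p no larger than 0.05. Regions within a group were weighted equally. The probe with the highest mean represents a gene. For a gene that no array of 1 group detected, the fold is given as at least a value. This fold compares plain array means, neither adjusted for batch nor weighted by region. Levels of the undetected group were raised to at least the lowest level detected on the same array. It is therefore no bound on the fitted difference that was called. Where no such fold above 1 was found no size is given.

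The 8 genes and the lists around them were chosen with earlier results of these data known. Lists covered cadherins, EMT transcription factors, Snail and Zeb co-repressors, epithelial regulators, epithelial adhesion and polarity, adherens junction partners, fibronectin receptors, mesenchymal genes, gastrulation regulators, and markers of 11 cell types. The 8 genes were always to be named, by the main probe in the text and by other probes where they differ. In each list and each comparison with the tail bud or within batch 1, up to 3 called genes in each direction with the largest differences were eligible. The text names those against E7.5 and E8.5 for the lists around the transition, and fewer for the CLE, batch 1 and the cell type markers. No probe was found for Nkx3-2, Tfap2a, Tfap2b, Hdac1, Esrp2 and Msgn1.

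Alternatives tried were leaving out the background correction or the batch term, a normexp offset of 100, normalisation by cyclic loess, an own ComBat-type adjustment without and with the regions, BeadChip as a random block, a stricter filter and none, a replicate block, each array left out in turn, arrays of batch 1 only or of batches 2 and 3 only, and the tail bud of E9.5 to E11.5 only. Chosen after seeing the data were leaving out the 5 arrays with the fewest detected probes, a covariate for how many probes an array detected, and other choices of regions at E7.5, E8.5 and in the late CNH. The calculations were tested on simulated data. Promoters came from RefSeq annotation, and figures were drawn with Python 3.11.15 and matplotlib 3.10.9.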

Additional observations from a re-analysis of the deposited data

How the results depend on the processing

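Over all alternatives, the 72 results of the 8 genes included 15 called ones, refitted 753 times. The call was lost in 12 of these fits and the sign changed in 0. The 57 uncalled ones were refitted 2822 times, gained a call in 63 fits and changed sign without a call in 126. Both totals include fits that leave out an array outside the comparison. Such an array reaches the comparison only through the batch terms and the estimates of spread. The totals therefore do not measure how firm a call is. Cdh1 and Zeb1 were called against E7.5, E8.5 and the CLE and in batch 1 under every alternative run. Among the genes eligible to be named, 2 called values changed sign in the tail bud against E7.5 A only. These were Nodal (0.09) and the somite marker Tcf15 (-0.01).

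Leaving out 1 array at a time, the number of the 8 genes called was 2 to 2 against E7.5, 2 to 4 against E8.5, 2 to 5 against the CLE, 0 to 1 for E8.5 against E7.5, 2 to 3 in batch 1, 0 to 0 for P-CNH against CNH, 0 to 2 along E7.5, 0 to 2 for St5 and 2 to 3 for the late CNH. A region left with 1 array is assumed to vary like the others, and without NSB replicate 3 batch 1 is not adjusted to the other batches.

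For the tail bud minus E7.5, 2 became 3 without the 5 arrays with the fewest detected probes, as Vim was called (0.85). Calls over all probes went from 3087 higher and 3218 lower to 3253 and 3598. For the tail bud minus E8.5, where 2 were called, the count was 4 when a ComBat-type adjustment had no covariates and 6 when it had the regions. It was 5 without the 5 arrays with the fewest detected probes and 4 for E8.5 without St5, both chosen after seeing the data. Over all probes, 1414 higher and 1221 lower became 2285 and 1822, then 2653 and 2095 with the ComBat-type adjustments. The last 2 settings gave 2351 and 1877, and 1726 and 1465. For the tail bud minus E8.5 CLE, 4 became 7 with BeadChip as a random block, which added Cdh11, Vim and Fn1. Calls over all probes rose there from 2216 higher and 1594 lower to 2541 and 2018. For E8.5 minus E7.5, 0 became 3 with the ComBat-type adjustment with regions and 2 without the 5 arrays. Calls over all probes rose from 372 higher and 311 lower to 2815 and 3947, and to 1967 and 1904. For E10.5 minus E8.5 in batch 1, 3 became 5 with the ComBat-type adjustment without covariates and 5 on arrays of batch 1 only. Over all probes, 1652 higher and 1475 lower became 3342 and 3138, and 2148 and 1920. For E7.5 posterior minus anterior, 0 became 1 with the ComBat-type adjustment with regions, 1 with the BeadChip block and 3 without the 5 arrays. Over all probes, 627 higher and 629 lower became 838 and 850, 657 and 733, and 1348 and 1386 in turn. For St5, 2 became 1 without a batch term, 4 with the ComBat-type adjustment without covariates, 1 with no filter on dim probes, 5 on batch 1 arrays only and 4 without the 5 arrays. With these settings all probes called higher and lower, 660 and 799, became 507 and 636, then 1485 and 1679, then 609 and 717. The last 2 settings gave 1375 and 1591, and 1104 and 1341. For the late CNH, 2 became 1 with E12.5 CNH alone and 3 with E13.5 CNH alone, without a batch term, with the ComBat-type adjustment with regions and without the 5 arrays. Over all probes, 847 higher and 447 lower became 292 and 105 with E12.5, and 1534 and 1402 with E13.5. The others gave 1220 and 545, 1523 and 1136, and 1696 and 1136 in turn. The settings with 1 stage alone were chosen after seeing the data. The cause was not tested. The consensus correlation within BeadChips was 0.483, and the stricter filter left 18570 probes.

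Replicate numbers are shared by regions but the labels do not tie them to a litter or day. In batch 1 all arrays of replicate 1 shared a BeadChip, and all of replicate 2 shared another. Of 120 pairs of regions, same-numbered deviations correlated above 0.1 in 31 and under -0.1 in 12 (-0.66 to 0.61, median 0.04), so the numbers were not taken as a pairing. With a replicate block the counts were 2 against E7.5, 3 against E8.5, 4 against the CLE, 0 for E8.5 against E7.5, 3 in batch 1, 0 for P-CNH, 0 along E7.5, 2 for St5 and 2 for the late CNH.

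Signal over background limits the dim probes. Those of Cdh2, Cdh11 and Snai2 were undetected on many arrays, so differences among low levels are compressed, and the Cdh11 call in batch 1 was lost with the larger offset.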
